A study of Mus musculus with 6 samples.

Results

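Sphingosine 1-phosphate (S1P) is a lipid that guides blood cells out of tissues, and its machinery was read here from 10 genes in mouse bone marrow progenitors. The genes were the S1P receptors S1pr1, S1pr2, S1pr3, S1pr4 and S1pr5, the sphingosine kinases Sphk1 and Sphk2, the exporter Spns2, the S1P lyase Sgpl1, and Gpr183, a receptor for oxysterols that directs cell positioning. All 10 were found by symbol among the 24421 gene rows of the count table, and 9 had enough counts for a test. S1pr1 was picked for its fall between the genotypes, so its difference is given as a description with no test. The other 9 are its receptor family and pathway partners.

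The libraries came from C57BL/6 bone marrow cells that lack lineage markers and carry the receptor c-Kit (LK cells, a gate that holds stem cells and the progenitors of myeloid cells, red cells and megakaryocytes). Mice with a mutant ASXL1 knock-in, named ASXL1-MT-KI, were compared with wild type littermates, all 8 to 12 weeks old, with 3 libraries for each genotype. ASXL1 is a chromatin regulator that is often mutated in myeloid neoplasms, and the comparison asks which transcripts differ when the mutant form is present. No other allele or agent is named for either group. The labels call the experiments biologically independent but state neither the driver of the knock-in nor the number of animals behind each library.

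S1P is made inside cells when SPHK1 or SPHK2 adds a phosphate to sphingosine, and it leaves through transporters such as SPNS2 and, in red cells, MFSD2B. It is removed by phosphatases or cut irreversibly by the lyase SGPL1, which keeps its level low in tissue and high in blood and lymph. S1PR1 couples to inhibitory G proteins and moves cells towards S1P, while S1PR2 couples through G12 and G13 proteins and can hold cells back. S1PR3 couples to several G protein classes, S1PR4 is found mainly on blood cells, and S1PR5 is known from natural killer cells. In bone marrow the CXCL12 receptor CXCR4 opposes egress.

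The libraries held 40462168 to 47579480 counts. Asxl1 itself had 8077, 7793 and 6703 counts in wild type and 15525, 14763 and 12868 in ASXL1-MT-KI, higher in all 3 knock-in libraries. Of 13548 tested genes, 2165 passed an adjusted p of 0.05 between the genotypes (quasi-likelihood test of edgeR, adjusted by Benjamini-Hochberg over all tested genes), which is 16%, with 8.29% higher and 7.69% lower in ASXL1-MT-KI. The LK markers were present (15424 to 17153 against 15951 to 16638 CPM). CPM is a gene's count over the library's count total times its TMM factor (the library scaling of edgeR), brought to a fixed total. The TMM factors were 0.972 to 0.997 in wild type and 1.009 to 1.026 in ASXL1-MT-KI. CPM is thus not a plain share of the library's counts. Of 12 lists of markers of other or more specialised cells, 4 had summed levels that did not overlap between the groups. Among single tested genes 35.2% did not overlap, so this count of lists does not stand out. The erythroid sum overlapped (359.8 to 484.1 against 482.7 to 546.5 CPM). Of its 6 tested members 1 rose and 0 fell, beside 8.29% and 7.69% of all tested genes. All 6 estimates were positive, with a median log2 fold change of 0.45, and Hba-a1 and Hbb-bs were at 0. The T cell sum was lower in ASXL1-MT-KI (10.4 to 13.0 against 7.65 to 9.88 CPM; 1 of 5 tested members fell, and Cd3g and Cd8b1 were at 0), and so was the stem cell sum (166.5 to 182.0 against 137.8 to 145.8 CPM; 5 of 10 fell and 2 rose). The sum for mast cells, basophils and eosinophils was lower (523.7 to 605.0 against 236.2 to 508.6 CPM; 0 of 8 passed in edgeR, with 2 lower at an unadjusted p of 0.05), and that for monocytes and macrophages was higher (729.3 to 762.5 against 767.9 to 862.5 CPM; 1 of 10 rose and 1 fell).

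S1pr1 showed the largest difference of the members. It lies on chromosome 3 (115710433 to 115715072, minus strand) in GRCm38, the assembly that mm10 names. Its raw counts were 777, 784 and 744 in wild type against 296, 254 and 273 in ASXL1-MT-KI. This gave 16.9, 17.1 and 18.3 CPM in wild type and 6.17, 5.62 and 6.58 CPM in ASXL1-MT-KI. All 3 knock-in libraries lay below all 3 wild type libraries, with little spread inside either group. The means were 17.5 ± 0.765 and 6.12 ± 0.483 CPM (SD, n = 3 each), 2.85-fold lower in ASXL1-MT-KI (log2 fold change -1.51 ± 0.091, SE). The log2 fold change ran from -1.57 to -1.46 when any library was left out, and same-numbered libraries gave knock-in to wild type ratios of 0.364, 0.329 and 0.359.

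In sorted bulk RNA, fewer cells that carry S1pr1 and less S1pr1 RNA per cell cannot be told apart. Lymphocytes and endothelial cells also express S1pr1. The lineage-negative gate should remove mature lymphocytes. The T cell sum, the stem cell sum and the sum for mast cells, basophils and eosinophils were all lower without overlap, as S1pr1 was, and their part in its difference was not tested. Of the 10 T cell markers, 7 stayed under 1 CPM. The B cell sum overlapped (22.4 to 26.6 against 22.1 to 25.6 CPM), but its single genes were mostly lower. Of its 8 tested members Vpreb1, Cd79a and Igll1 fell and 0 rose, beside 7.69% and 8.29% of all tested genes. Their median log2 fold change was -1.06, with 6 estimates negative and 2 positive, and their part in the S1pr1 difference was not tested. No B cell marker was at 0, and 8 of 12, among them Ms4a1, Pax5 and also Igll1, which fell, were under 1 CPM. The endothelial sum overlapped as well (212.5 to 230.9 against 191.7 to 226.3 CPM; 1 of 11 rose and 2 fell, none at 0), with Cdh5, Sox17 and Flt4 under 1 CPM.

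**Figure D1:**
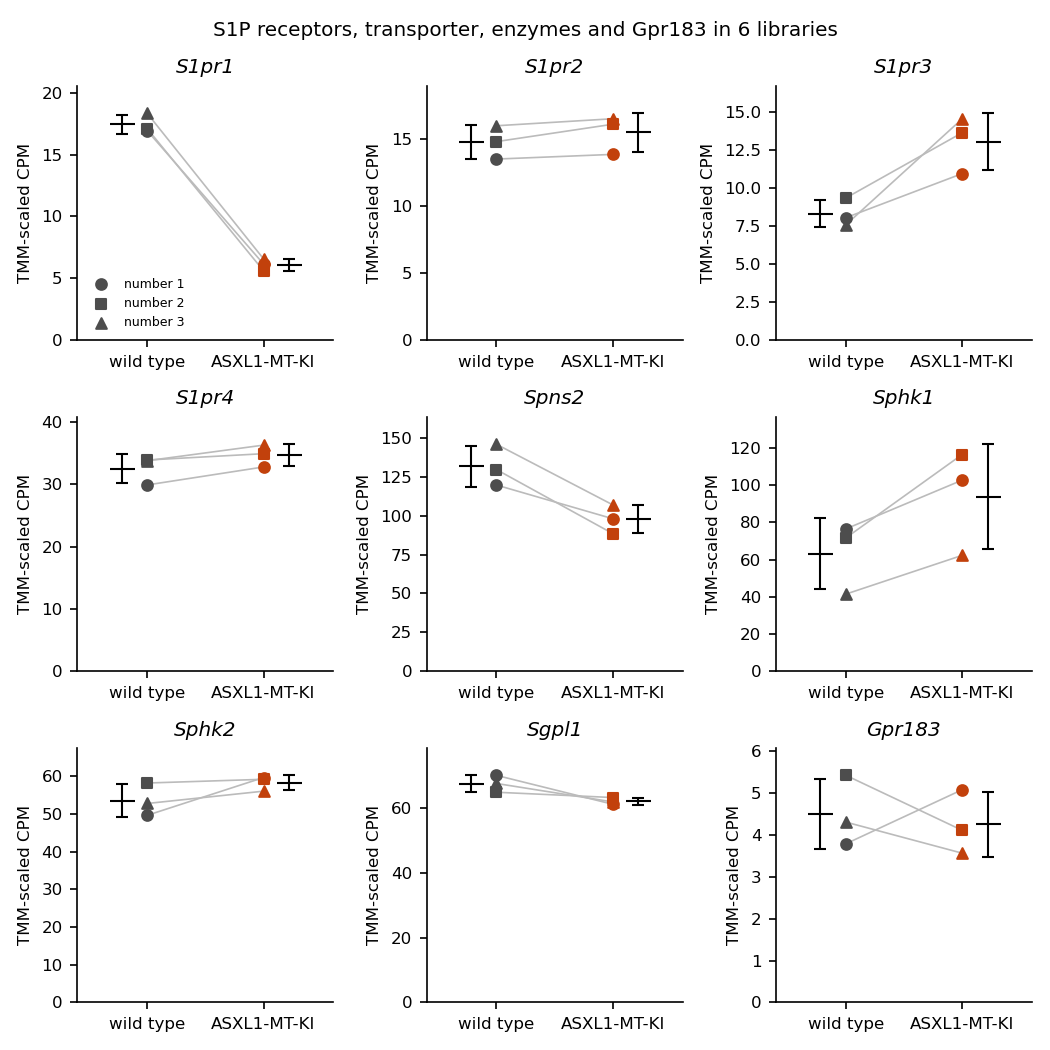
CPM (vertical axes) of the 9 tested members in each library, with wild type in grey on the left and ASXL1-MT-KI in orange on the right, a symbol for each replicate number, thin lines between same-numbered libraries, and bars for the mean ± SD of 3 libraries. S1pr1 lies at 16.9 to 18.3 CPM in wild type and 5.62 to 6.58 CPM in ASXL1-MT-KI, and Sphk1 is lowest in number 3 of both groups.

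S1pr3 went the other way. It lies on chromosome 13 (51408639 to 51422797, plus strand) and was at 8.06, 9.36 and 7.59 CPM in wild type and 10.96, 13.6 and 14.6 CPM in ASXL1-MT-KI. Every knock-in library was above every wild type library. S1pr3 rose from 8.34 ± 0.915 to 13.1 ± 1.87 CPM, 1.56-fold (adjusted p = 0.00896 in edgeR, log2 fold change 0.65 ± 0.13, SE). The call held in every alternative, the highest adjusted p being 0.0488 without wild type replicate 1. The same-numbered ratios were 1.36, 1.46 and 1.92, highest in number 3. A noncoding gene on the opposite strand, Gm32834, shares 1.01% of the S1pr3 exon bases, and no label states whether counting used strand.

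No difference was called for the other receptors. S1pr2 was at 13.5, 14.8 and 15.99 CPM in wild type and 13.9, 16.1 and 16.5 CPM in ASXL1-MT-KI (log2 fold change 0.07 ± 0.097, SE; adjusted p = 0.684, edgeR). S1pr4 was at 29.9, 33.9 and 33.8 CPM in wild type and 32.8, 34.9 and 36.3 CPM in ASXL1-MT-KI (log2 fold change 0.09 ± 0.073, SE; adjusted p = 0.439, edgeR). For both genes the groups overlapped, and neither passed in any alternative. S1pr5 had 1, 3 and 3 counts in wild type and 1 in each knock-in library. The ratio of its summed counts was 0.421 with an exact 95% interval of 0.0703 to 1.84, which covers counting error only, so a difference was not detectable at this depth.

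Of the 8 tested members other than S1pr1, S1pr3 rose and Spns2 fell, beside 8.29% and 7.69% of all tested genes (16% in either direction). In TMM-scaled CPM the groups did not overlap in 3 of these 8, beside 35.2% of all tested genes. S1pr3 had all knock-in libraries above, beside 18%, and Spns2 and Sgpl1 had all below, beside 17.2%. S1pr1 was picked on this contrast and is not counted here.

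Levels of different genes were compared per kilobase of exon (CPM divided by the summed length of all annotated exons). On that scale S1pr4 was the most abundant receptor in wild type, at 13.6 ± 0.954, followed by S1pr1 at 5.73 ± 0.251. S1pr3 (1.87 ± 0.205) and S1pr2 (1.85 ± 0.156) had overlapping ranges. In ASXL1-MT-KI S1pr4 was again first, at 14.5 ± 0.739. S1pr3 (2.93 ± 0.419) stood above S1pr1 (2.01 ± 0.158) there without overlap, and S1pr1 overlapped S1pr2 (1.94 ± 0.179). The ratio of S1pr1 to S1pr3 per kilobase was 3.08, 2.68 and 3.54 in wild type and 0.825, 0.603 and 0.662 in ASXL1-MT-KI. S1pr1 was the more abundant of the pair in every wild type library and the less abundant in every knock-in library. This ratio contains the difference that chose S1pr1, so it is a description.

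As a share of the summed per-kilobase level of the 5 receptors, S1pr1 held 25.7%, 23.6% and 25.2% in wild type and 10.1%, 8.56% and 9.51% in ASXL1-MT-KI. The share of S1pr4 was 59.0% ± 0.862 and 67.9% ± 0.926 (SD, n = 3 each). That of S1pr3 was 8.09% ± 0.880 and 13.6% ± 1.14, and that of S1pr2 8.01% ± 0.326 and 9.07% ± 0.335. The summed level itself overlapped between the groups, at 21.6 to 23.9 in wild type and 19.97 to 22.7 in ASXL1-MT-KI. These shares contain the difference that chose S1pr1, and a share can grow because another receptor fell, so they are a description.

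**Figure D2:**
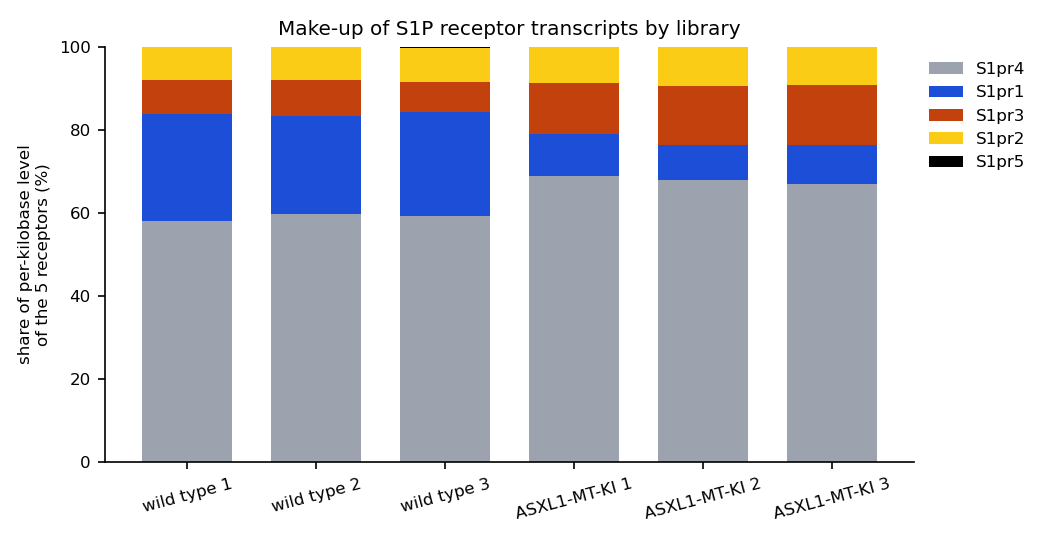
Stacked share of each S1P receptor in the summed per-kilobase level of the 5 receptors (vertical axis, percent) in each of the 6 libraries. S1pr1 takes 23.6% to 25.7% in wild type and 8.56% to 10.1% in ASXL1-MT-KI, and S1pr4 takes the largest share in every library.

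Members share little sequence that could mix their counts. Among the 45 pairs of members, the longest identical stretch between annotated transcripts was 41 bases, between S1pr4 and Sphk1. Among the 10 receptor pairs it was 28 bases, while reads were 124 bases long and paired.

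Spns2, the S1P exporter, fell. It lies on chromosome 11 (72451638 to 72489904, minus strand) and was at 119.6, 129.5 and 145.8 CPM in wild type and 98.0, 88.4 and 106.9 CPM in ASXL1-MT-KI. The groups did not overlap. The means were 131.6 ± 13.2 and 97.7 ± 9.22 CPM, 1.35-fold lower in ASXL1-MT-KI (log2 fold change -0.43 ± 0.088, SE; adjusted p = 0.0117, edgeR). The call held in every alternative, with an adjusted p of at most 0.0358. Per kilobase Spns2 was the most abundant member, at 32.2 ± 3.24 in wild type and 23.9 ± 2.26 in ASXL1-MT-KI. Mybbp1a on the opposite strand shares 3.21% of the Spns2 exon bases and was at 648.2 ± 38.1 and 583.7 ± 24.6 CPM (adjusted p = 0.103, edgeR). Its part in the Spns2 counts was not tested.

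Sphk1 was higher in each knock-in library than in the wild type library of the same number, but the groups overlapped. It lies on chromosome 11 (116530925 to 116536674, plus strand) and was at 76.5, 71.6 and 41.5 CPM in wild type and 102.7, 116.5 and 62.3 CPM in ASXL1-MT-KI. Number 3 was the lowest library of both groups. The means were 63.2 ± 19.0 and 93.8 ± 28.1 CPM (log2 fold change 0.57 ± 0.35, SE; adjusted p = 0.346, edgeR). The fit without the replicate number thus made no call, which is not evidence that Sphk1 was unchanged. With the replicate number as a block Sphk1 passed with nearly the same estimate (log2 fold change 0.57, adjusted p = 2.2e-06, edgeR), and 30.5% of all tested genes then passed, 16.7% as higher. It also passed when number 3 of both groups was left out (log2 fold change 0.57, adjusted p = 6.1e-04, edgeR). The same-numbered ratios were 1.34, 1.63 and 1.502. An antisense gene, Gm29292, shares 4.02% of the Sphk1 exon bases.

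The low Sphk1 of number 3 was of like size in both groups. Against the mean of numbers 1 and 2, the log2 difference was -0.83 in wild type and -0.81 in ASXL1-MT-KI, larger in size than for 96.6% and 97.4% of tested genes. For S1pr1 it was 0.11 and 0.16, and for Spns2 0.23 and 0.20, so number 3 was the higher one there. S1pr3 differed between the groups in this respect, with -0.19 in wild type and 0.25 in ASXL1-MT-KI. No label says what a number shares, and what sets number 3 apart was not tested.

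The promoters of S1pr3 and Sphk1, the members with the highest estimates in ASXL1-MT-KI, are shown for the letters CACCC on either strand, the core of sites that Kruppel-like factors such as KLF2 can bind. They come from RefSeq (GRCm38.p6), from 250 bases before to 50 bases after a transcript start, plus strand, at chr13:51408368-51408667 for S1pr3 and chr11:116531587-116531886 for Sphk1. Sphk1 has 5 such windows, and the one with the most matches is shown. Capitals mark these letters or their reverse complement.
S1pr3: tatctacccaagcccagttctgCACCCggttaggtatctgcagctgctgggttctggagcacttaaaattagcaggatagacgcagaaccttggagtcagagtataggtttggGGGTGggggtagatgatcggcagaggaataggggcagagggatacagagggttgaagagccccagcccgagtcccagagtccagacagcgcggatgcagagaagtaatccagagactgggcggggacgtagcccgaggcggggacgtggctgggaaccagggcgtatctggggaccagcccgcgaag
Sphk1: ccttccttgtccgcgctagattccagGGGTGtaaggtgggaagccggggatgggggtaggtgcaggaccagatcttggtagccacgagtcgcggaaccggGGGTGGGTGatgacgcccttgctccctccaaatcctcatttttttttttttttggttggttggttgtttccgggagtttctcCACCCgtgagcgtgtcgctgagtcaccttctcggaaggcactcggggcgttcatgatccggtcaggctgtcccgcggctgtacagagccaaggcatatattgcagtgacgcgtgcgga
The S1pr3 window held 2 matches and this Sphk1 window 4, of which a pair overlaps by a base. Of the other Sphk1 windows 3 held 3 matches each, and the one at chr11:116530850-116531149 held 0. Those 3 windows overlap the shown window or each other, so the same letters are counted again. Of 32851 RefSeq promoter windows of this length, 57.5% held the letters. Among the other members, both Sphk2 windows and the S1pr5 window held 2 matches each. The S1pr2 and S1pr4 windows held 1 each, and those of Sgpl1, Spns2 and Gpr183 held 0. TGANTCA, which AP-1 factors can bind, was in 7.81% of all windows and in 2 of the 5 Sphk1 windows, this one included. These 2 windows overlap and hold the same match. Both strands were searched, and a match is not a site. Windows were matched for 9 of the 10 members. S1pr1 had no window, so its promoter was not searched.

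Sphk2 and the lyase Sgpl1 had no call. Sphk2 was at 49.6, 58.2 and 52.8 CPM in wild type and 59.7, 59.2 and 56.0 CPM in ASXL1-MT-KI, with overlap (log2 fold change 0.12 ± 0.067, SE; adjusted p = 0.248, edgeR). It shares 13.0% of its exon bases with Dbp and 8.97% with the ribosomal protein gene Rpl18, both on the opposite strand, so its counts are uncertain if strand was not used. Rpl18 stood at 1083 ± 32.5 CPM in wild type and 1032 ± 62.0 CPM in ASXL1-MT-KI. Sgpl1 was at 70.1, 64.9 and 67.6 CPM in wild type and 61.2, 63.3 and 61.9 CPM in ASXL1-MT-KI. These groups did not overlap in TMM-scaled CPM, but the difference was small (log2 fold change -0.12 ± 0.051, SE) and did not pass (adjusted p = 0.144, edgeR). With total-count scaling the log2 fold change of Sgpl1 was -0.07 (adjusted p = 0.384, edgeR), so the gap between its groups depends on the scaling.

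Per kilobase, Sphk1 (13.2 ± 3.97), Sphk2 (12.9 ± 1.04) and S1pr4 had overlapping ranges in wild type. Sgpl1 (10.998 ± 0.424) lay below Sphk2 and S1pr4 and inside the range of Sphk1, an order that turns when the longest transcript is taken as the length (Sgpl1 15.5, Sphk2 15.1, S1pr4 13.6). In ASXL1-MT-KI Sphk1 was at 19.7 ± 5.90, Sphk2 at 14.0 ± 0.473 and Sgpl1 at 10.1 ± 0.172. The ratio of Sphk1 to Sgpl1, the kinase against the lyase, was 1.40, 1.42 and 0.789 in wild type and 2.16, 2.37 and 1.29 in ASXL1-MT-KI. It was lowest in number 3 of both groups, and the groups overlapped.

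Gpr183 was weakly expressed and its groups overlapped. It lies on chromosome 14 (121952551 to 121965195, minus strand), inside Ubac2 on the opposite strand with no shared exon bases. It was at 3.79, 5.43 and 4.31 CPM in wild type and 5.08, 4.11 and 3.57 CPM in ASXL1-MT-KI. The order of the groups changed from number to number (ratios 1.34, 0.758 and 0.827; log2 fold change -0.08 ± 0.18, SE; adjusted p = 0.808, edgeR). Per kilobase it was the lowest member above S1pr5, at 1.56 ± 0.290 and 1.47 ± 0.266, and its range overlapped that of S1pr2 in both groups.

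**Figure D3:**
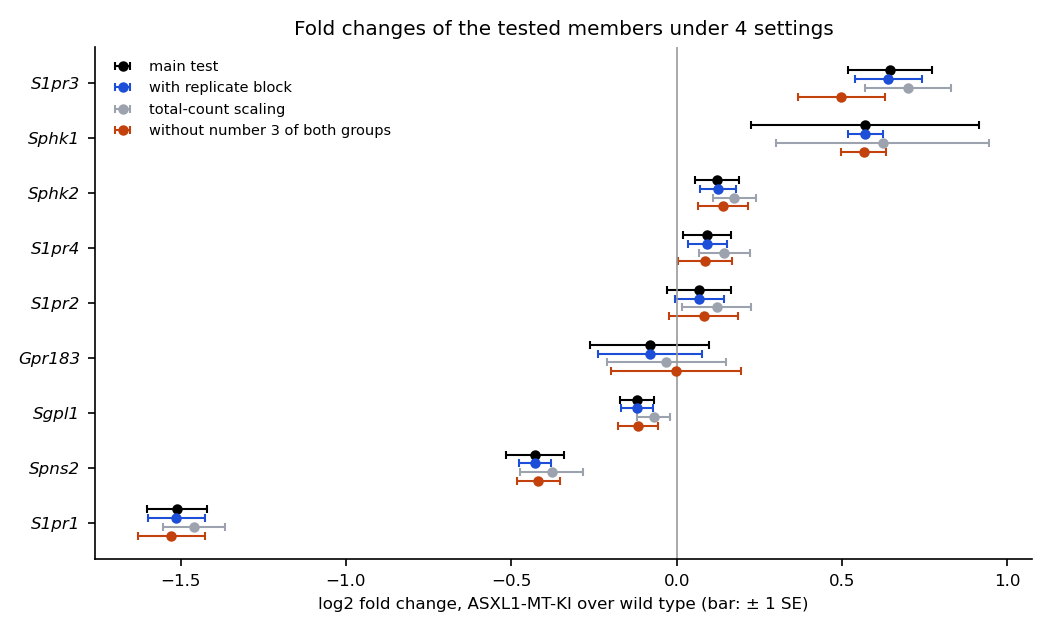
Log2 fold change of ASXL1-MT-KI over wild type (horizontal axis, bars ± 1 SE) for the 9 tested members in the main test, with the replicate block, with total-count scaling and without number 3 of both groups. S1pr1 stands alone on the left at -1.53 to -1.46, and the estimates of Sphk1 lie close together while its error shrinks with the block.

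Genes of oxysterol and cholesterol enzymes were read beside the receptor. Some of them make or break the oxysterol ligand of GPR183, and others, such as Soat1 and Soat2, do not. Of 6 tested genes 2 rose, beside 8.29% of all tested genes, and 0 fell in edgeR (0 also at an unadjusted p of 0.05, in DESeq2 and in limma-voom). The median log2 fold change was 0.25 beside 0.00 over all tested genes, and 0.0584 with the filter at 1 CPM. Cyp27a1, a sterol hydroxylase, rose and was at 2.96, 2.94 and 3.82 CPM in wild type and 6.23, 7.48 and 6.75 CPM in ASXL1-MT-KI (log2 fold change 1.07 ± 0.14, SE; adjusted p = 0.00142, edgeR). All its knock-in libraries were above all wild type libraries. Soat2, which esterifies cholesterol, rose by 0.45 on the log2 scale (adjusted p = 0.0144), a call lost without replicate 1 or 2 of ASXL1-MT-KI (adjusted p 0.0560 to 0.0605). Ch25h, the hydroxylase that starts ligand synthesis, had 3, 2 and 3 counts in wild type and 0, 1 and 1 in ASXL1-MT-KI, too few for a test.

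In the list of S1P and sphingosine metabolism and transport 3 of 29 tested genes rose and 0 fell in edgeR (1 fell at an unadjusted p of 0.05, and 0 in DESeq2 and in limma-voom), beside 16% of all tested genes that passed, and the median was -0.00. Ppap2c, a lipid phosphate phosphatase now named Plpp2, rose from 13.0 ± 0.132 to 16.7 ± 0.776 CPM (adjusted p = 0.0101, edgeR), a call lost without replicate 1 or 2 of ASXL1-MT-KI (adjusted p 0.0502 to 0.0518). Cib2, a calcium-binding protein, rose from 0.589 ± 0.165 to 1.18 ± 0.0801 CPM (adjusted p = 0.0251), lost without replicate 1 or 2 of wild type or replicate 1 or 2 of ASXL1-MT-KI (adjusted p 0.0728 to 0.0929). Acer3, an alkaline ceramidase, rose from 43.2 ± 0.667 to 49.2 ± 0.855 CPM (adjusted p = 0.0366), and this call was lost on leaving out any library (adjusted p 0.0659 to 0.132). With the block 8 genes of the list rose and 1 fell, beside 30.5% of all tested genes in either direction.

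The S1P phosphatase gene Sgpp1 was at 106.0, 104.9 and 97.2 CPM in wild type and 126.5, 113.3 and 112.1 CPM in ASXL1-MT-KI. Its groups did not overlap, and it did not pass (adjusted p = 0.0655, edgeR), though it did with the block (adjusted p = 0.00338) and with total-count scaling (0.0194). The exporter gene Mfsd2b was at 121.9, 124.1 and 98.5 CPM in wild type and 144.4, 155.9 and 120.6 CPM in ASXL1-MT-KI, lowest in number 3 of both groups and overlapping (adjusted p = 0.141, edgeR). It passed with the block (adjusted p = 7.2e-05), without number 3 of both groups (0.00542), without ASXL1-MT-KI replicate 3 (0.0453) and in DESeq2 (0.0489). Its relation to the erythroid markers was not tested.

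Of 11 tested transcription factors and surface proteins listed as regulators of S1pr1, 5 fell and 1 rose (beside 7.69% and 8.29% of all tested genes), with a median of -0.40. That median is the estimate of Klf2, which had no call. It ran from -0.52 to -0.29 when any library was left out. Cd69 encodes a membrane protein that binds S1PR1 and takes it off the surface, and it fell and was at 230.5, 197.4 and 185.8 CPM in wild type and 127.0, 123.3 and 106.2 CPM in ASXL1-MT-KI (log2 fold change -0.78 ± 0.093, SE; adjusted p = 0.00110, edgeR). Its groups did not overlap. Foxo1, a transcription factor upstream of Klf2 in lymphocytes, fell from 18.2 ± 0.436 to 13.6 ± 0.940 CPM (adjusted p = 0.00639). Hif1a, the hypoxia factor, fell from 113.2 ± 9.22 to 79.1 ± 6.16 CPM (adjusted p = 0.00211), and Prdm1, which encodes the repressor BLIMP1, from 0.819 ± 0.124 to 0.282 ± 0.0242 CPM (adjusted p = 0.00531). Stat3 fell from 134.8 ± 9.26 to 110.2 ± 11.5 CPM (adjusted p = 0.0381), which was lost with total-count scaling (0.0927) and without replicate 1 or 3 of wild type or replicate 1 or 2 of ASXL1-MT-KI (0.0755 to 0.120). Gfi1, a repressor of myeloid and stem cell genes, rose from 58.7 ± 7.70 to 85.9 ± 12.9 CPM (adjusted p = 0.0268), lost without replicate 1 or 2 of wild type or replicate 1 of ASXL1-MT-KI (0.0776 to 0.0914).

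Klf2, best known for driving S1pr1 transcription in lymphocytes, varied with the replicate number. It was at 140.6, 104.0 and 64.2 CPM in wild type and 100.2, 98.0 and 34.9 CPM in ASXL1-MT-KI, lowest in number 3 of both groups (log2 fold change -0.40 ± 0.53, SE; adjusted p = 0.673, edgeR). Its relation to S1pr1 was not tested.

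Of 25 tested genes of receptor coupling and trafficking, 5 fell and 1 rose (beside 7.69% and 8.29% of all tested genes), with a median of -0.08, or -0.03 with total-count scaling. Gna13, a G protein subunit below S1PR2, fell and was at 227.2, 212.7 and 209.6 CPM in wild type and 169.4, 162.9 and 177.2 CPM in ASXL1-MT-KI (log2 fold change -0.35 ± 0.052, SE; adjusted p = 0.00235, edgeR). Its effector gene Arhgef1 fell from 339.3 ± 15.5 to 299.8 ± 9.43 CPM (adjusted p = 0.0402), lost with total-count scaling (0.135) and without replicate 1, 2 or 3 of wild type or replicate 1 or 2 of ASXL1-MT-KI (0.0537 to 0.151). Gnai2, an inhibitory subunit that S1PR1 uses, was at 672.6 ± 12.5 and 639.9 ± 23.1 CPM (adjusted p = 0.329).

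The list held 4 tested Rgs genes, whose products switch off G proteins, though not each of them the same classes. Rgs18, named after its values were seen, had no call (adjusted p = 0.747, edgeR), with means of 64.7 ± 1.51 CPM for wild type and 63.4 ± 2.21 CPM for the knock-in. Rgs16 fell from 5.89 ± 2.55 to 0.699 ± 0.0291 CPM (adjusted p = 5.4e-04, edgeR) and Rgs1 from 298.0 ± 44.1 to 181.5 ± 13.6 CPM (adjusted p = 0.00474). Rgs2 fell from 322.6 ± 47.2 to 208.3 ± 24.9 CPM (adjusted p = 0.0175), lost without replicate 1 or 2 of wild type or replicate 2 of ASXL1-MT-KI (0.0548 to 0.0621) and without the filter on low counts. Gna11, a subunit of the Gq class, rose from 14.9 ± 0.965 to 18.9 ± 1.01 CPM (adjusted p = 0.0199), lost without replicate 1 or 2 of wild type or replicate 2 or 3 of ASXL1-MT-KI (0.0559 to 0.0871). With the block 2 genes of the list rose and 9 fell, beside 30.5% of all tested genes in either direction.

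**Figure D4:**
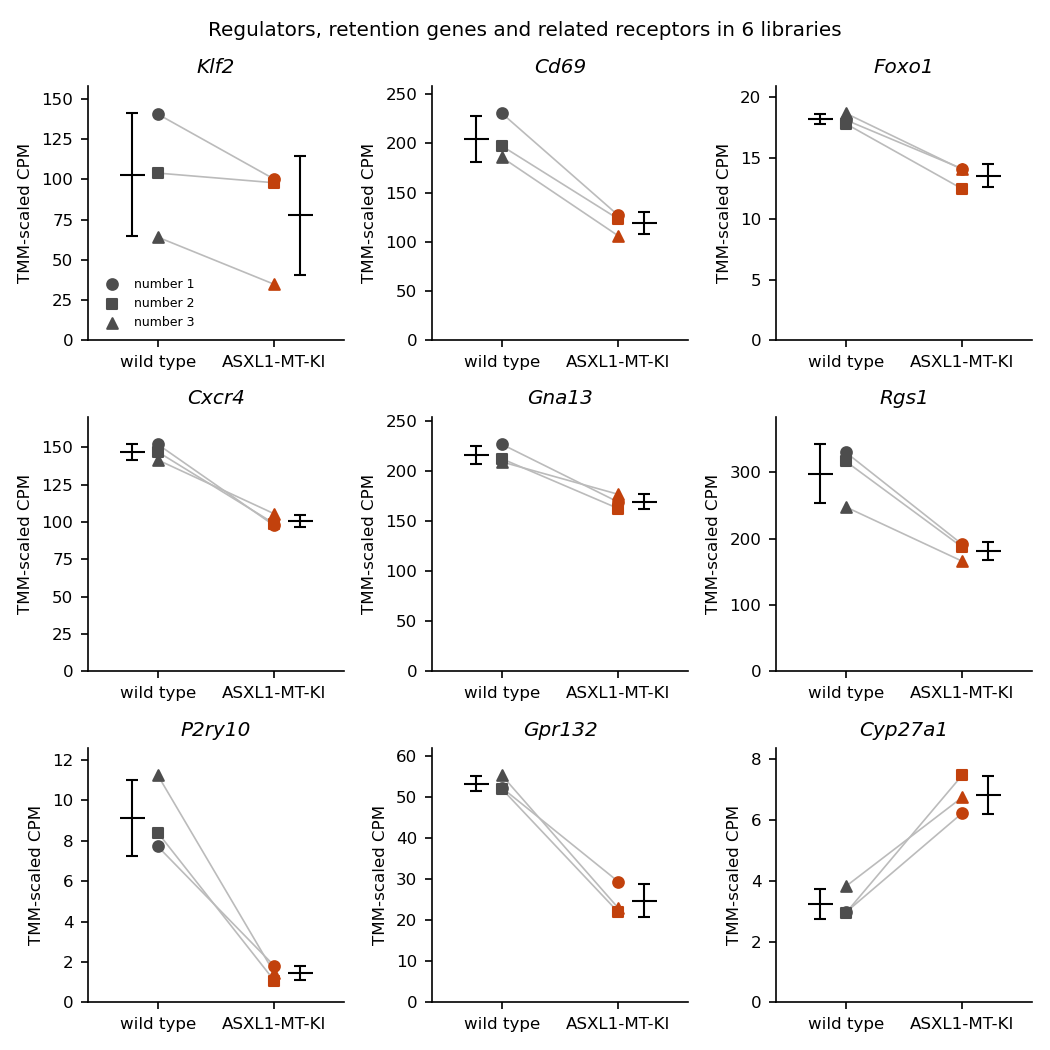
CPM (vertical axes) of 9 genes around S1P signalling in each library, drawn as for the members. Cd69, Foxo1, Cxcr4, Gna13, Rgs1, P2ry10 and Gpr132 are lower and Cyp27a1 is higher in all 3 ASXL1-MT-KI libraries, while Klf2 overlaps and is lowest in number 3 of both groups.

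Of 22 tested genes of marrow retention and homing 4 fell and 1 rose (beside 7.69% and 8.29% of all tested genes), with a median of -0.06, or -0.01 with total-count scaling. Cxcr4 fell and was at 152.1, 147.1 and 141.7 CPM in wild type and 97.8, 99.0 and 105.6 CPM in ASXL1-MT-KI, 1.46-fold lower (log2 fold change -0.54 ± 0.052, SE; adjusted p = 2.8e-04, edgeR). Its groups did not overlap. Cd44, an adhesion receptor for hyaluronan, fell from 330.6 ± 11.3 to 254.5 ± 11.3 CPM (adjusted p = 0.00139), Robo4 from 6.90 ± 0.890 to 4.16 ± 0.0308 CPM (adjusted p = 0.00489) and the chemokine receptor gene Ccr2 from 55.6 ± 2.30 to 42.0 ± 3.65 CPM (adjusted p = 0.00531). Dpp4, a peptidase that inactivates CXCL12, rose from 33.9 ± 3.93 to 46.9 ± 0.398 CPM (adjusted p = 0.00470). These 5 calls held on leaving out any library. With the block 4 genes of the list rose and 6 fell, beside the same 30.5%.

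Of 19 tested receptors for related lipids 5 fell and 2 rose (beside 7.69% and 8.29% of all tested genes), with a median of -0.12. Over the alternatives the median ran from -0.32, on leaving out replicate 3 of ASXL1-MT-KI, to -0.0673, on leaving out replicate 3 of wild type. P2ry10, a lysophosphatidylserine receptor, fell and was at 7.71, 8.40 and 11.2 CPM in wild type and 1.81, 1.08 and 1.47 CPM in ASXL1-MT-KI (log2 fold change -2.64 ± 0.21, SE; adjusted p = 1.2e-04, edgeR). Its groups were far apart. Gpr132 fell from 53.2 ± 1.83 to 24.8 ± 4.03 CPM (adjusted p = 3.2e-04), and the proton-sensing receptor gene Gpr65 from 24.9 ± 1.69 to 12.9 ± 1.18 CPM (adjusted p = 2.5e-04). The prostaglandin E2 receptor gene Ptger4 fell from 32.3 ± 1.74 to 22.2 ± 1.04 CPM (adjusted p = 0.00121) and Ptger3 from 11.5 ± 1.47 to 8.31 ± 0.300 CPM (adjusted p = 0.0204), the latter call being lost without replicate 2 of wild type or replicate 1 or 2 of ASXL1-MT-KI (0.0526 to 0.0754). Cnr2, the cannabinoid receptor of blood cells, rose from 21.9 ± 2.58 to 30.5 ± 2.95 CPM (adjusted p = 0.0120), lost without replicate 1 of wild type or replicate 2 of ASXL1-MT-KI (0.0569 to 0.0616).

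**Figure D5:**
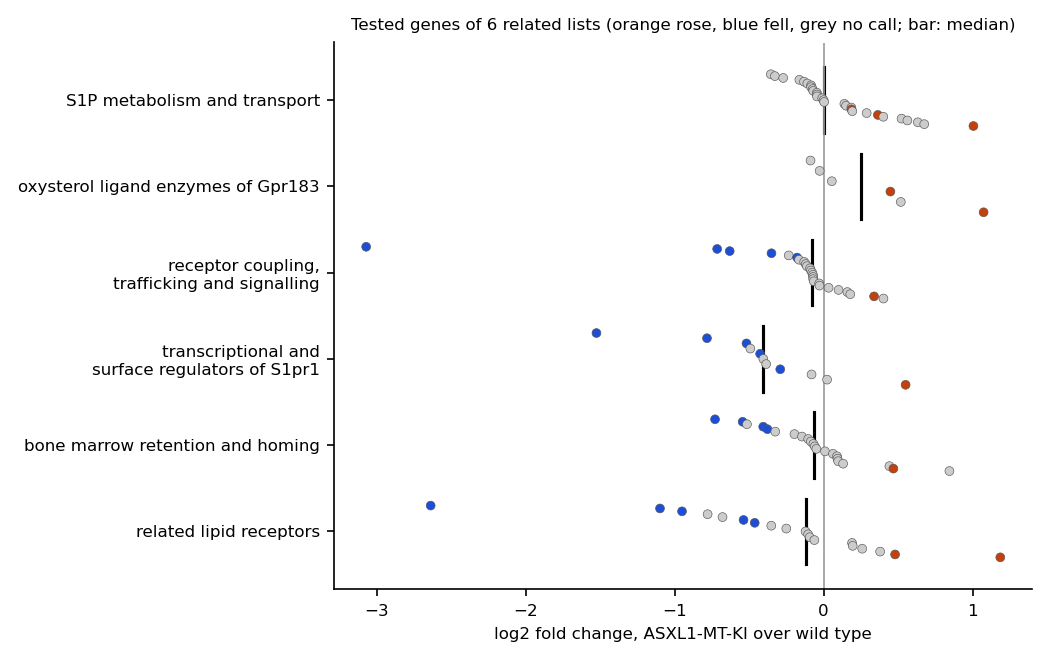
Log2 fold change of ASXL1-MT-KI over wild type (horizontal axis) for each tested gene of 6 lists around S1P and GPR183 signalling, orange for genes that rose, blue for genes that fell and grey for no call, with a bar at the list's median. The regulators of S1pr1 have the lowest median, -0.40, which is the estimate of Klf2, a gene with no call. The leftmost points are Rgs16 at -3.07 and P2ry10 at -2.64.

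The genes whose log2 CPM followed S1pr1 most closely over the 6 libraries were Pcdh7 (Pearson r = 0.999), Reps1 (0.997), Wasf2 (0.996), Ssfa2 (0.996) and Slc39a4 (0.996), among 11064 genes with a mean of at least 50 counts. The 6 points share their scaling and the step between genotypes, so these values are a description. The log2 fold changes of the 5 genes ran from -3.03 for Pcdh7, a protocadherin gene, to -0.20 for Reps1.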

How the data were processed

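RNA of LK cells from 6 libraries (3 wild type, 3 ASXL1-MT-KI) was sequenced from 200 ng RNA as paired reads of 124 bases, per the labels' protocols. The deposited values are raw counts per gene. HISAT2 2.0.4 and mm10 are named in the submitters' processing notes, and neither they nor the labels name the counting tool, its annotation or its use of strand. Genes kept by edgeR's filterByExpr (minimum count 10) were scaled by TMM and fitted on genotype with the robust quasi-likelihood test (edgeR 4.0.16, R 4.3.3), at an adjusted p of 0.05 over 13548 genes. The biological coefficient of variation was 8.78%. DESeq2 1.42.0, limma-voom (limma 3.58.1), other scaling and filters, the replicate block and leaving out libraries were alternatives. On simulated data with 200 changed genes among 13548, the test of ASXL1-MT-KI against wild type found 69.8% of the genes changed 1.5-fold, 82.6% of those changed 2-fold and 89.7% of those changed 4-fold. It also made 6 false calls. The simulated counts held no difference by replicate number and fewer changed genes than the 2165 called here, so these rates need not hold for these libraries.

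Same-numbered libraries had correlated deviations from their group means (r = 0.253, 0.162 and 0.391 for numbers 1 to 3), all over 0.1, so the numbers may pair the libraries. The calls given are nonetheless those of the fit without the block, and the blocked fit is an alternative. The pairing rests on the data, since no label says what a number shares, and wild type replicate 2 correlated as well with ASXL1-MT-KI replicate 1 (r = 0.163). Where nothing more is known of the libraries' animals, p-values measure the spread between these libraries. Gene positions and lengths come from GENCODE M21. The members and gene lists were chosen with earlier results of these data known. Named are all members, called list genes (up to 6 a list by p), Klf2, Cd69, Cxcr4, Ch25h, Gnai2, Gna13, Sgpp1 and Mfsd2b whatever their result and the 5 genes most like S1pr1.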

Additional observations from a re-analysis of the deposited data

How the results depend on the processing

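Among the members, the calls of S1pr3 and Spns2 held in all 15 alternatives, Sphk1 gained its call with the replicate block and without number 3 of both groups (members that rose 2 each, against 1), and Gpr183 changed sign on leaving out wild type replicate 2 (0.074) and on leaving out ASXL1-MT-KI replicate 3 (0.024), within a leave-one-out range of the log2 fold change of -0.24 to 0.074. The block changed no other member's call. With the block, 2256 genes rose and 1876 fell in all (1123 and 1042 without it); leaving out a library gave 534 to 1216 and 587 to 1041. The block raised the genes that rose to 8 for S1P metabolism (from 3, with 1 fallen from 0), 2 for coupling (from 1, with 9 fallen from 5), 4 for retention (from 1) and 4 for lipid receptors (from 2). DESeq2 gave 5 for S1P metabolism, 2 for retention and 1 for lipid receptors, and the filter at 1 CPM gave 1 for the last. Over all tested genes DESeq2 gave 1216 risen and 1169 fallen, and that filter gave 1059 and 955. Total-count scaling, which moved the median of all genes from 0.00 to 0.05, gave 2 for coupling and 2 for retention. Over all tested genes it gave 1562 risen and 767 fallen, so the near-even split of 1123 and 1042 depends on the scaling. Without number 3 of both groups 5 rose for S1P metabolism, 2 for coupling and 2 for retention, beside 1301 risen and 1112 fallen in all. An adjusted p of 0.10 gave 6 risen for S1P metabolism, and 2 risen and 8 fallen for coupling. At that threshold 1662 of all tested genes rose and 1456 fell. Leaving out a library gave 0 to 3 risen for S1P metabolism, 1 to 2 for oxysterol enzymes, 0 to 1 for coupling (3 to 5 fallen), 0 to 1 for regulators of S1pr1, 1 to 2 for retention and 0 to 2 for lipid receptors. Beyond fewer samples or a changed threshold, the cause was not tested. With the longest transcript as the length, the wild type level per kilobase was 2.31 for S1pr2, 15.1 for Sphk2, 40.6 for Spns2 and 15.5 for Sgpl1, which puts S1pr2 above S1pr3, and Sgpl1 above Sphk2 and S1pr4. In ASXL1-MT-KI it puts S1pr2 (2.42) above S1pr1 (2.01). Depth limits S1pr5 and Ch25h, which were too low to test.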
